A study of Mus musculus with 4 samples.

Results

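The 38 genes described here encode proteins of the synaptic vesicle release machinery and relatives from the same families. All 38 were found by name, 1 row each, among the 20793 gene rows of the deposited table. They are 13 synaptotagmins, 11 synapsins and other proteins of the vesicle surface, 7 SNARE proteins and complexins and 7 proteins of the active zone. RNA-seq was run on brain RNA of mice at postnatal day 1, in 2 wild-type (WT) libraries and 2 knockout libraries of CIC (capicua), each pair lettered A and B. The knockout animals carry a loxP-flanked Cic gene and Nes-Cre, a Cre recombinase under Nestin regulatory sequence that acts in neural progenitors and their descendants and leaves the gene intact in lineages such as microglia. For the WT animals the genotype label gives Nes-Cre with unmodified Cic, whereas the sample titles describe floxed animals without Cre, so which of these the controls are cannot be told from the labels. Nothing in the labels says that the libraries came from separate animals, and p-values therefore measure the spread between these libraries, which may be technical.

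An action potential opens calcium channels at the presynaptic active zone, calcium binds synaptotagmin on the vesicle, and the SNARE proteins synaptobrevin (Vamp), syntaxin (Stx1a) and SNAP-25 zip together and fuse the vesicle with the membrane, with complexins holding the complex ready. Munc13 (Unc13), RIM (Rims), Bassoon (Bsn) and Piccolo (Pclo) organise the active zone and prime vesicles, and synapsins tether the reserve pool. Several of these proteins come as pairs used by different neurons: in mature rodents Syt1 and Vamp2 dominate in the forebrain, while Syt2 and Vamp1 are most abundant in the brainstem, cerebellum and spinal cord.

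CIC is a transcriptional repressor, and Cic RNA itself had 51.3 and 56.4 FPKM (a read count scaled to transcript length and library size) in the WT pair but 19.1 and 22.2 FPKM in the knockout pair. Limma's adjusted p for Cic was 0.213. Neuron markers were abundant in every library: the 11 listed genes summed to 3943 and 3833 FPKM in the WT pair against 3889 (knockout A) and 3543 FPKM (knockout B). Markers of single brain regions differed between the libraries. The 8 cortex markers summed to 621 and 646 FPKM in the WT pair against 443 (knockout A) and 279 FPKM (knockout B). The 11 hindbrain and cerebellum markers summed to 23.7 and 28.7 FPKM in the WT pair against 58.7 (knockout A) and 143 FPKM (knockout B), and the 6 thalamus and midbrain markers to 7.03, 7.42, 12.2 and 95.5 FPKM in the same order. Defining hindbrain genes of the Hox family were at or near 0 outside knockout B: Hoxb3 was at most 0.0093 FPKM in the other 3 libraries and 3.55 FPKM in knockout B. Blood genes were also highest in knockout B: Alas2, the erythroid enzyme of haem synthesis, had 40.1 FPKM there and 5.76 to 9.25 FPKM in the other libraries. Choroid plexus markers summed to 151 and 492 FPKM in WT, 978 and 1049 FPKM in the knockouts, and astrocyte markers to 398, 430.0, 538 and 573 FPKM, but to 197, 207, 224 and 194 FPKM over the 6 of them other than Apoe. In WT A, WT B, knockout A and knockout B, meninges markers summed to 44.0, 63.0, 75.5 and 83.5 FPKM. Microglia markers summed to 60.1, 71.4, 82.8 and 122 FPKM in that order. Oligodendrocyte lineage and endothelium markers spanned 72.0 to 82.1 and 76.1 to 92.6 FPKM. Knockout B thus stood apart in the regional and blood markers, while in the choroid plexus markers the WT libraries also differed from each other. The members that the results turn on are given for each knockout library separately.

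Across the release machinery no gene passed the test. Levels were compared as log2(FPKM + 1) with limma over the 12703 rows with a mean of at least 1 FPKM, at a Benjamini-Hochberg adjusted p of 0.05. Of the 38 genes 37 were tested and 0 were called in either direction, and over all rows 3 were called higher (0.0236%) and 3 lower (0.0236%), together 0.0472%. At an unadjusted p under 0.05 there were 5 higher genes (Syt13, Vamp1, Syt17, Syt3 and Syp), where the background over all rows was 6.61%, and 1 lower gene (Cplx1), where it was 3.54%. Together they were 16.2% of the members tested against 10.2% of all rows. The median log2 difference was 0.03 for the members and 0.02 for all rows. The 95% interval of the difference lay wholly between -1 and 1 on the log2 scale for 32 of the 37 genes. Fewer cells of a type and less RNA per cell cannot be told apart in these bulk samples.

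Without knockout A, limma called 6 members higher (16.2%, against 17.9% of all rows) and 12 lower (32.4%, against 16.0%). The higher genes were Vamp1, Syt13, Syt2, Bsn, Sv2c and Syt12, and the lower ones were Sv2b, Syt6, Syt1, Stx1a, Cplx2, Synpr, Syt5, Syn3, Unc13b, Cplx1, Unc13a and Syt4. In that fit the spread is the one between the WT libraries, which knockout B is taken to share, and over all genes it called 2269 higher and 2036 lower. Without knockout B, limma called 0 members, against 16 genes higher (0.126%) and 11 lower (0.0866%) over all rows. Vamp1 and Syt13 then had log2 differences of 0.56 and 0.83.

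**Figure D1:**
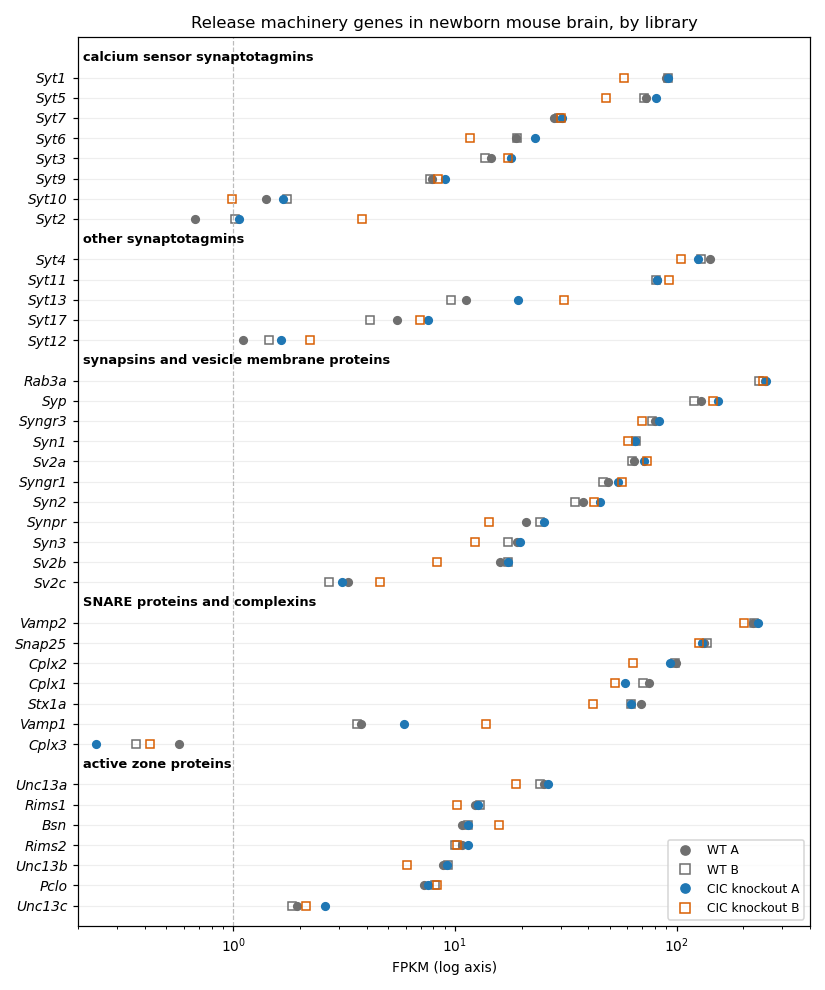
FPKM on a log axis of the 38 release machinery genes in each of the 4 libraries, grouped by role and ordered by WT mean, with the dashed line at 1 FPKM. WT and knockout points lie close together for abundant genes such as Rab3a, Snap25 and Vamp2, whereas knockout B stands to the right for Vamp1, Syt2 and Syt13 and to the left for Syt1, Syt5, Syt6, Sv2b, Synpr and Syn3.

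In WT brain the levels, which FPKM scales by transcript length, ran over more than 2 orders of magnitude. The small GTPase gene Rab3a, whose product marks docked vesicles, was highest at 242 ± 9.97 FPKM (SD, n = 2), followed by the synaptobrevin gene Vamp2 at 222 ± 1.26 FPKM. Snap25, Syt4, Syp and Cplx2 came next, at 135 to 98.5 FPKM. At the other end stood Syt2 at 0.849 ± 0.250 FPKM and Cplx3, a complexin of retinal ribbon synapses, at 0.468 ± 0.145 FPKM. In all, 14 of the 38 genes had a WT mean of at least 50 FPKM and 8 were under 5 FPKM. Of the 37 pairs of neighbours in this order, 9 had overlapping WT values, among them Snap25 and Syt4, Syt4 and Syp, Cplx1 and Syt5, and Stx1a and Syn1. The log2 differences between knockout and WT of the 14 most abundant genes ran from -0.39 (Cplx1) to 0.27 (Syp). In knockout B alone they ran from -0.63 (Syt1) to 0.24 (Syp). Over all rows tested the median absolute log2 difference was 0.135, and 0.212 in knockout B.

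Among the synaptotagmins that bind calcium, Syt1 and Syt2 differed from WT in opposite directions in knockout B. Syt1, the fast calcium sensor of forebrain synapses (mm9, chromosome 10, 107934706 to 108448031), had 89.8 and 91.6 FPKM in the WT pair against 91.7 (knockout A) and 58.0 FPKM (knockout B). Knockout A was thus at the WT level and only knockout B was low. The log2 difference was -0.31 ± 0.23 (SE; adjusted p = 0.60), made up of 0.02 for knockout A and -0.63 for knockout B. Syt2, the fast sensor of brainstem synapses (chromosome 1, 136543258 to 136645994), had 0.672 and 1.03 FPKM in the WT pair against 1.06 (knockout A) and 3.80 FPKM (knockout B). Both knockout libraries lay above WT, but knockout A by less than the gap between the WT libraries. The log2 difference of Syt2 was 0.77 ± 0.42 (adjusted p = 0.549), with 0.16 for knockout A and 1.38 for knockout B. Its WT mean was under 1 FPKM, so that Syt2 was tested only because of its knockout values, and its place among the higher genes in any count is fixed in part by the filter. Of the summed FPKM of the fast sensors Syt1, Syt2 and Syt9, Syt2 made up 0.683% and 1.02% in the WT pair against 1.04% (knockout A) and 5.40% (knockout B). Syt9 itself stayed between 7.74 and 9.07 FPKM in all libraries.

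Syt5 and Syt6, which also bind calcium, had the pattern of Syt1. Syt5 had 72.9 and 71.3 FPKM in the WT pair against 80.5 (knockout A) and 48.0 FPKM (knockout B) (log2 difference -0.21 ± 0.26, SE; adjusted p = 0.739). Syt6 had 18.9 and 19.0 FPKM in the WT pair against 23.0 (knockout A) and 11.7 FPKM (knockout B) (-0.19 ± 0.31; adjusted p = 0.806). For both genes the knockout libraries lay on opposite sides of the WT pair. Syt10, which acts in secretion of IGF-1 in the olfactory bulb, was low at 1.41 and 1.75 FPKM in the WT pair against 1.68 (knockout A) and 0.991 FPKM (knockout B). Syt7, the sensor of slow asynchronous release, varied little, from 28.1 to 30.5 FPKM. Syt3, a high-affinity calcium sensor, had 14.6 and 13.7 FPKM in WT and 17.9 and 17.3 FPKM in the knockouts, a log2 difference of 0.29 ± 0.09 shared by both libraries (0.32 and 0.27) with an adjusted p of 0.473.

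On the log2(FPKM + 1) scale the largest difference of any member was that of Syt13, and both knockout libraries showed it. With a pseudocount of 0.1 Vamp1 came first (1.27, against 1.23 for Syt13), and by fold of the means Syt2 (2.86) and Vamp1 (2.66) exceeded Syt13. Syt13 belongs to the synaptotagmins that lack the usual calcium-binding residues (chromosome 2, 92755258 to 92796208). It had 11.2 and 9.56 FPKM in the WT pair against 19.2 (knockout A) and 31.2 FPKM (knockout B). Both knockout libraries exceeded both WT libraries by more than the gap of the WT pair. The mean went from 10.4 ± 1.19 to 25.2 ± 8.48 FPKM (SD, n = 2 each), 2.42-fold, with a log2 difference of 1.17 ± 0.25 (SE) and a 95% interval of 0.51 to 1.82, at an adjusted p of 0.417. Of the summed FPKM of the 13 synaptotagmins, Syt13 made up 2.37% and 2.08% in the WT pair and 3.91% and 7.5% in the knockout pair.

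Syt17 and Syt12, which also lack calcium binding, were higher in both knockout libraries at low levels. Syt17 (chromosome 7, 125525370 to 125587066) had 5.48 and 4.16 FPKM in WT and 7.59 and 7.0 FPKM in the knockouts. The difference was about equal in knockout A (0.57) and knockout B (0.47), although Syt17 was also the member whose WT libraries lay farthest apart on the log2(FPKM + 1) scale. Its log2 difference was 0.52 ± 0.14 (adjusted p = 0.470). Syt12 had 1.11 and 1.45 FPKM in WT and 1.64 and 2.22 FPKM in the knockouts (0.36 ± 0.15; adjusted p = 0.503). Syt4, a synaptotagmin of dense-core and postsynaptic vesicles, went the other way, with 141 and 128 FPKM in the WT pair against 125 (knockout A) and 105 FPKM (knockout B). Syt11, its closest relative, had 81.2, 80.6, 82.0 and 92.3 FPKM in the same order. All 5 synaptotagmins without calcium sensing thus had both knockout libraries on 1 side of the WT pair, 4 above (over all rows 27.1%) and 1 below (21.7%).

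**Figure D2:**
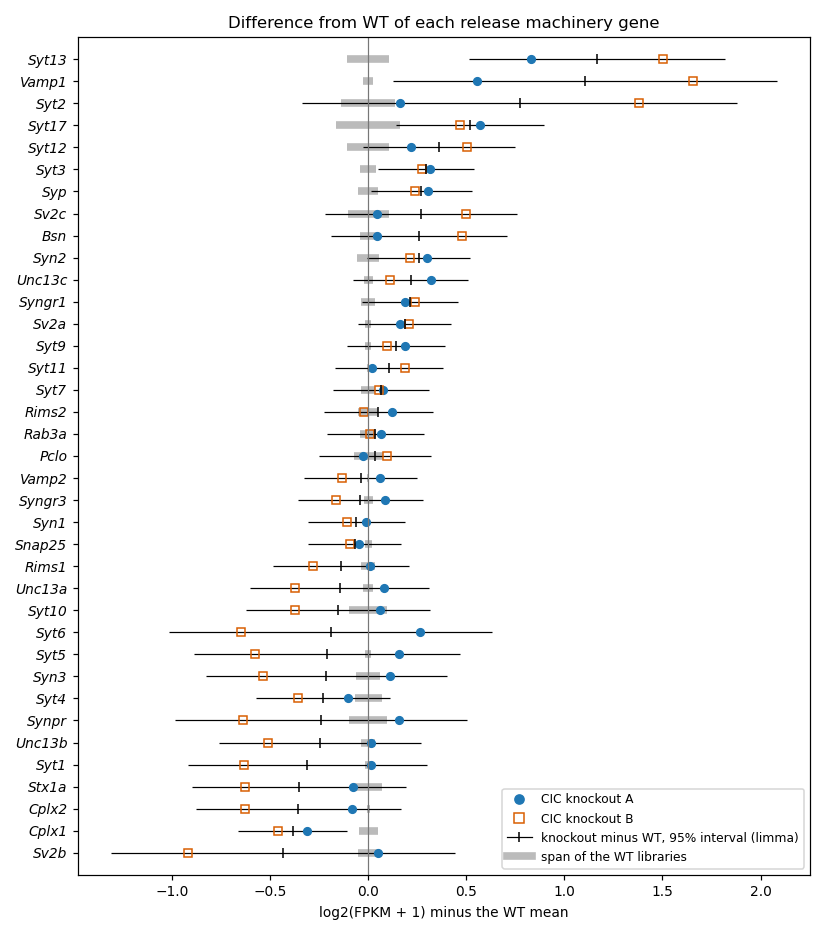
Difference from the WT mean in log2(FPKM + 1) of the 37 tested genes, in knockout A (filled circles) and knockout B (open squares), with limma's knockout minus WT estimate and its 95% interval in black and the span of the WT libraries in grey. Syt13, Vamp1 and Syt2 lie farthest to the right, and for Sv2b, Syt1, Syt5, Syt6, Synpr and Syn3 only knockout B lies to the left of WT.

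Among the SNARE genes, Vamp1 was higher in both knockout libraries while Vamp2 and Snap25 stayed near WT and Stx1a was low in knockout B. Vamp1 (chromosome 6, 125165599 to 125172324), the synaptobrevin of brainstem and motor synapses, had 3.77 and 3.61 FPKM in the WT pair against 5.90 (knockout A) and 13.8 FPKM (knockout B). Even the lower knockout value stood well clear of the WT pair, whose values nearly coincided. The mean went from 3.69 ± 0.115 to 9.83 ± 5.56 FPKM (SD, n = 2 each), 2.66-fold, and the log2 difference was 1.10 ± 0.37 (SE; 95% interval 0.13 to 2.08) at an adjusted p of 0.484. Vamp2 (chromosome 11, 68902030 to 68905883) had 221 and 223 FPKM in the WT pair against 232 (knockout A) and 202 FPKM (knockout B) (-0.04 ± 0.11; adjusted p = 0.895). Vamp1 accounted for 1.68% and 1.59% of the summed FPKM of Vamp1 and Vamp2 in WT, as against 2.48% (knockout A) and 6.37% (knockout B). Vamp2 therefore remained the main synaptobrevin RNA in every library. Snap25 had 133 and 137 FPKM in WT and 130.5 and 126 FPKM in the knockouts, a log2 difference of -0.07 with a 95% interval of -0.31 to 0.17. The plasma membrane syntaxin gene Stx1a had 68.8 and 62.4 FPKM in the WT pair against 62.1 (knockout A) and 42.0 FPKM (knockout B), so that knockout A lay at the edge of the WT pair (-0.35 ± 0.21, SE; adjusted p = 0.561).

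Complexin 1 had the lowest unadjusted p (0.0171) of the members that were lower in the knockout libraries. Cplx1 (chromosome 5, 108947573 to 108979046) had 75.1 and 70.2 FPKM in the WT pair against 58.4 (knockout A) and 52.5 FPKM (knockout B). The knockout libraries were close to each other and both below WT. The log2 difference was -0.39 ± 0.11 (SE; 95% interval -0.66 to -0.11), with -0.31 for knockout A and -0.46 for knockout B, at an adjusted p of 0.469. Cplx2, the complexin of most excitatory forebrain neurons, had 99.1 and 97.9 FPKM in the WT pair against 92.9 (knockout A) and 63.4 FPKM (knockout B) (-0.36 ± 0.20; adjusted p = 0.552). Cplx3 did not reach a mean of 1 FPKM and was not tested. Its values were 0.570 and 0.365 FPKM in WT and 0.241 and 0.420 FPKM in the knockouts, which overlap.

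Among proteins of the vesicle membrane some genes were slightly higher in both knockout libraries and others were low in knockout B alone. Synaptophysin (Syp), the most abundant vesicle membrane protein after synaptobrevin, had 128 and 119.6 FPKM in WT and 153 and 146 FPKM in the knockouts (log2 difference 0.27 with a 95% interval of 0.02 to 0.53). The synapsin gene Syn2 had 37.7 and 34.9 FPKM in WT and 44.9 and 42.2 FPKM in the knockouts, the synaptogyrin gene Syngr1 had 49.2 and 46.7 against 54.7 and 56.7 FPKM, and Sv2a, the binding site of the antiepileptic levetiracetam, had 64.1 and 62.6 against 71.1 and 73.3 FPKM. In these 4 genes the groups did not overlap and the difference was 0.19 to 0.27 on the log2 scale, none past the test. They were 36.4% of the 11 synapsin and vesicle membrane genes, where 27.1% of all rows had both knockout libraries above both WT libraries. Both lay below WT for 1 of the 11 (9.09%, against 21.7% of all rows). Syn1, the X-linked synapsin, had 65.1, 65.6, 64.9 and 60.5 FPKM in WT A, WT B, knockout A and knockout B. Rab3a had 249, 235, 253 and 244 FPKM in that order, and Syngr3 had 79.9, 77.4, 83.3 and 70.2 FPKM (-0.04 ± 0.12, SE; adjusted p = 0.901).

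Sv2b had the largest negative difference from WT of any member in a single library. This SV2 glycoprotein gene of the vesicle membrane (chromosome 7, 82259781 to 82454148) had 16.0 and 17.3 FPKM in the WT pair against 17.3 (knockout A) and 8.35 FPKM (knockout B). Knockout A matched WT and knockout B was the outlying library. The log2 difference was -0.43 ± 0.33 (SE; adjusted p = 0.606), with 0.05 for knockout A and -0.92 for knockout B. Its relative Sv2c, the isoform of basal ganglia and brainstem neurons, had 3.28, 2.70, 3.11 and 4.62 FPKM, highest in knockout B. Within the SV2 family Sv2b made up 19.2% and 21.0% of the summed FPKM in WT, as against 18.9% (knockout A) and 9.68% (knockout B). Synaptoporin (Synpr), the synaptophysin relative of interneurons and hippocampal mossy fibres, had 21.0 and 24.3 FPKM in the WT pair against 25.3 (knockout A) and 14.2 FPKM (knockout B) (-0.24 ± 0.28; adjusted p = 0.727). Syn3, the synapsin of immature neurons, had 19.1, 17.4, 19.7 and 12.3 FPKM (-0.21 ± 0.23; adjusted p = 0.704). Synapsin genes overlap other genes in the table, Araf and Timp1 with Syn1, Timp4 with Syn2 and Timp3 with Syn3. Mpv17l2 overlaps Rab3a and Gm5136 overlaps Syt1, and the sources used here do not say whether reads were assigned by strand, so these values are uncertain. Araf was more abundant than Syn1 in every library, at 93.1, 89.6, 104 and 115 FPKM.

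At the active zone the priming factors Unc13a and Unc13b and the RIM gene Rims1 were lower in knockout B than in the other libraries, and the scaffold genes Bsn and Pclo were not. Unc13a, the main Munc13 of forebrain synapses, had 25.2 and 24.3 FPKM in the WT pair against 26.2 (knockout A) and 18.9 FPKM (knockout B) (log2 difference -0.15 ± 0.17, SE; adjusted p = 0.729). Unc13b had 8.84, 9.32, 9.19 and 6.07 FPKM, and Rims1 had 12.3, 12.9, 12.7 and 10.2 FPKM in WT A, WT B, knockout A and knockout B. In each of these 3 genes knockout A lay within 0.1 of the WT mean on the log2 scale. Rims2 stayed between 10 and 11.4 FPKM and the giant scaffold gene Pclo between 7.29 and 8.32 FPKM. Bsn had 10.8 and 11.5 FPKM in the WT pair against 11.5 (knockout A) and 15.9 FPKM (knockout B), so that only knockout B stood clear. Unc13c, the Munc13 of cerebellar granule cells, had 1.94 and 1.85 FPKM in the WT pair against 2.61 (knockout A) and 2.13 FPKM (knockout B). Both knockout libraries lay above WT for 2 of the 7 active zone genes, Bsn (by a margin below rounding in knockout A) and Unc13c, or 28.6% against 27.1% of all rows, and below for 0 (21.7% of all rows).

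A sequence that CIC is known to bind stood in the promoter windows of 2 members, Bsn and Unc13c. The octamers TGAATGAA and TGAATGGA were searched on both strands in RefSeq promoter windows (GRCm38.p6, 250 bases before to 50 after a start site), which exist for 27 of the 38 members. A match stood in 2 of 37 member windows (5.41%), against 2.47% of all 32851 windows. The bases upstream of the start sites of Bsn (chr9:108190384-108190633, minus strand) and Unc13c (chr9:73969038-73969287, minus strand) are printed with the match, here the reverse complement of the octamer, in capitals. It begins at -185 in Bsn and at -144 in Unc13c, counted from the first transcribed base. Vamp1 (chr6:125215331-125215580, plus strand), the member with the largest log2(FPKM + 1) difference among those with a window, is shown beside them and holds no match in these letters.
Bsn: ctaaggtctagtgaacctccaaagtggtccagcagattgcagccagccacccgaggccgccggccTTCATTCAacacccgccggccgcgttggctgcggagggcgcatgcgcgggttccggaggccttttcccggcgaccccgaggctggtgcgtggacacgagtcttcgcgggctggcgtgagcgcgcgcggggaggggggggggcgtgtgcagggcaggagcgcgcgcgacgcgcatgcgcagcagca
Unc13c: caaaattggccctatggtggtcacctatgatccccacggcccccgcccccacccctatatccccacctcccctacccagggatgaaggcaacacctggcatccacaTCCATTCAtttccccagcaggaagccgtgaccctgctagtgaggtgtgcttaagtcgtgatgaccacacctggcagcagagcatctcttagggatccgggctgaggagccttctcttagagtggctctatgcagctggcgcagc
Vamp1: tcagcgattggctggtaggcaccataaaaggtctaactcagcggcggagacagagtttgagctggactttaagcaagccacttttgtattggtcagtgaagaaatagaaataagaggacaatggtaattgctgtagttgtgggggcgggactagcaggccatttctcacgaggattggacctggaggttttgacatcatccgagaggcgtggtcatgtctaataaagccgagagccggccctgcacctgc
A match is only a description of the letters, and neither Bsn nor Unc13c passed the test (adjusted p of 0.576 and 0.546).

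The knockout libraries differed from each other over much of the machinery. In knockout A 25 of 37 members lay above both WT libraries (67.6%, against 42.0% of all rows) and 6 below both (16.2%, against 37.0%). In knockout B 17 lay above both (45.9%, against 48.0%) and 18 below both (48.6%, against 41.3%). Both knockout libraries were above both WT libraries for 15 members (40.5%, against 27.1% of all rows) and below for 6 (16.2%, against 21.7%). For 8 members (21.6%, against 23.2%) they lay on opposite sides: Syt1, Syt5, Syt6, Synpr, Syn3, Syngr3, Unc13a and Vamp2. Knockout B was at least 0.3 below knockout A on the log2 scale in 11 members (29.7%, against 16.1%): Sv2b, Syt6, Synpr, Syt5, Syt1, Syn3, Stx1a, Cplx2, Unc13b, Unc13a and Syt10. It was at least 0.3 above knockout A in 5 members (13.5%): Bsn, Sv2c, Syt13, Syt2 and Vamp1. The share of all rows in that direction was not calculated. In 8 members (21.6%, against 9.10%) 1 knockout library lay at least 0.5 beyond WT while the other was within 0.3 of it: Sv2b, Syt6, Synpr, Syt1, Stx1a, Cplx2, Syt5 and Syt2. The WT libraries differed by at least 0.3 in 1 member, Syt17 (2.70%, against 4.69%). Summed over all 38 genes the machinery had 1887 and 1836 FPKM in the WT pair against 1945 (knockout A) and 1721 FPKM (knockout B).

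**Figure D3:**
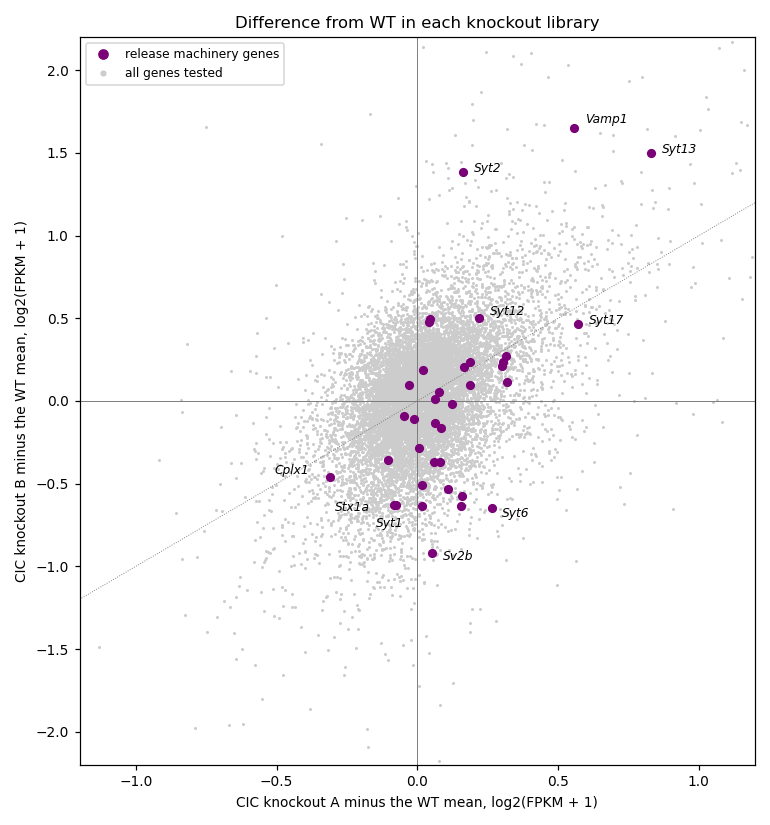
Difference from the WT mean in log2(FPKM + 1) in knockout A (horizontal) against knockout B (vertical) for the 37 release machinery genes (purple) and all genes tested (grey; 75 genes lie outside the axes), with a dotted line where both are equal. Vamp1 and Syt13 lie to the right of and above 0 in both libraries, whereas Syt1, Syt6 and Sv2b lie near or right of 0 in knockout A and well below 0 in knockout B.

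Markers of brain regions differed between the same libraries. Vamp1, Syt2 and Syt13 were highest in knockout B, where the summed hindbrain and cerebellum markers and thalamus and midbrain markers were also highest. Of these markers Barhl1, En2, En1, Gbx2 and Pou4f1 had a WT mean under 1 FPKM and passed the filter only through the knockout libraries, so no count over the tested ones is given. The members Bsn, Pclo, Sv2a, Sv2c, Syngr1, Syt11 and Syt12 were highest in knockout B too. Unc13c, the Munc13 of cerebellar granule cells, was instead highest in knockout A (2.61 FPKM, against 2.13 FPKM in knockout B). Vamp2 had 202 FPKM in knockout B against 221 and 223 FPKM in the WT pair. Syt1, Sv2b, Cplx2 and Stx1a were lowest in knockout B, where the summed cortex markers were also lowest (8 of 8 below both WT libraries, against 41.3% of all rows). In knockout A, 7 of 8 cortex markers were below both WT libraries, against 37.0% of all rows, with a median log2 difference of -0.50. There Syt1 and Sv2b were at 0.02 and 0.05. Cplx2, Stx1a and Cplx1 were below both WT libraries in knockout A, at -0.084, -0.076 and -0.31. Of the hindbrain and cerebellum list, the zinc finger genes Zic1, Zic2 and Zic4 were above WT in knockout A. In that library Hoxa3 and Hoxb3 were listed at 0, and Hoxa2, Hoxb2 and Hoxb4 at 0.019, 0.022 and 0.0078 FPKM. The part of regional makeup and of blood in the differences of the release genes was not tested.

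**Figure D4:**
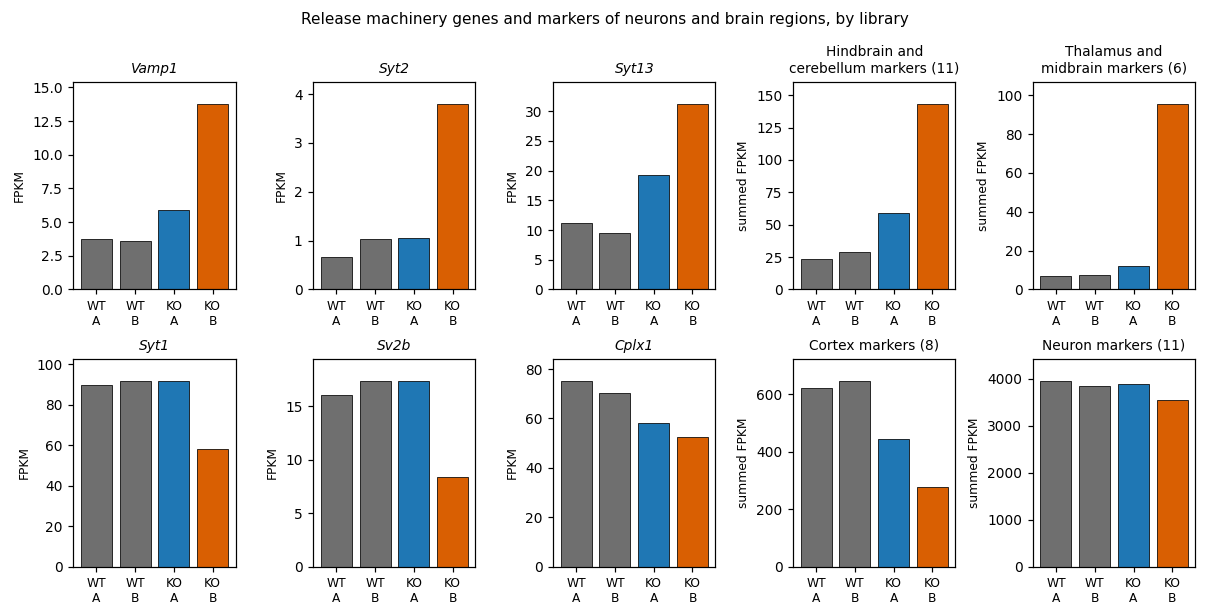
FPKM of 6 release machinery genes and summed FPKM of 4 marker lists (number of genes in brackets) in each library, KO standing for CIC knockout, each panel with its own axis from 0. Vamp1, Syt2 and Syt13 and the hindbrain, cerebellum, thalamus and midbrain markers are highest in knockout B, while Syt1, Sv2b, Cplx1 and the cortex markers are lowest there. Other members are not drawn, among them Vamp2 and Unc13c, which was highest in knockout A.

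None of the other vesicle cycle genes passed the test either. Of 48 further release genes 47 were found and 41 tested, with 0 called by limma, 5 higher (12.2%, against 6.61% of all rows) and 0 lower (against 3.54%) at an unadjusted p under 0.05. Both knockout libraries lay above WT for 15 (36.6%, against 27.1%) and below for 5 (12.2%, against 21.7%), and the median log2 difference was 0.07. Rims3, a short RIM isoform, had 40.6 and 35.6 FPKM in WT and 48.0 and 57.9 FPKM in the knockouts (0.46 ± 0.14, SE; adjusted p = 0.470), and the broadly expressed synaptogyrin gene Syngr2 had 4.15, 5.90, 7.07 and 8.61 FPKM (0.56 ± 0.18; adjusted p = 0.481). Rab3d and the liprin gene Ppfia2 were the lowest of this list with no overlap between groups, at log2 differences of -0.23 and -0.21. Of 23 recycling genes, which retrieve vesicle membrane by endocytosis, all were tested, 0 were called by limma, 2 were higher (8.70%, against 6.61%) and 2 lower (8.70%, against 3.54%) at an unadjusted p under 0.05, and the median was -0.002. Itsn1, an endocytic scaffold, had 38.2, 38.5, 31.7 and 27.0 FPKM (-0.38 ± 0.12; adjusted p = 0.470) and the endophilin gene Sh3gl2 had 67.0, 68.8, 58.8 and 50.4 FPKM (-0.31 ± 0.11; adjusted p = 0.488). The neuronal dynamin gene Dnm1, chosen after its values were seen, had 72.6 and 70.7 FPKM in WT and 90.1 and 101.1 FPKM in the knockouts (0.41 ± 0.10; adjusted p = 0.442).

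The transporters that fill the vesicles differed among themselves. Of the 5 tested limma called 0. At an unadjusted p under 0.05 there were 0 lower and 1 higher, Slc18a3, which had a WT mean under 1 FPKM and was tested only because of its knockout values. Among glutamate transporters Slc17a7, typical of cortex, had 45.4, 50.3, 42.2 and 10.4 FPKM in WT A, WT B, knockout A and knockout B (-1.13 ± 0.64, SE; adjusted p = 0.553). Slc17a6, typical of thalamus and brainstem, had 15.2, 14.5, 16.6 and 42.1 FPKM (0.80 ± 0.43; adjusted p = 0.548). In both genes knockout A lay near WT and knockout B far from it. The acetylcholine transporter gene Slc18a3 had 0.738 and 0.753 FPKM in WT and 1.58 and 2.37 FPKM in the knockouts, and the GABA transporter gene Slc32a1 had 24.5 and 23.2 FPKM in the WT pair against 39.1 (knockout A) and 27.1 FPKM (knockout B). Slc17a7 was thus low in the same library as Syt1, Sv2b and Cplx2, and Slc17a6 was high in the same library as Syt2 and Vamp1, whereas Slc32a1 was highest in knockout A.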

How the data were processed

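The authors deposited 1 table with 1 value per gene row and library, in FPKM; the unit was inferred from the values and the tool list of the submitters' processing notes (bcl2fastq 2.17, cutadapt, TopHat2 2.0.11, Cufflinks 2.1.1, mm9), which give no order or settings. Total depth is unknown, since the table holds no counts; column sums were 440005 to 449559 FPKM. Coordinates are those of the table in mm9, with starts raised by 1. Values were analysed as log2(FPKM + 1), which understates the change of low genes, for 12703 of 20793 rows with a mean of 1 or more, in limma 3.58.1 under R 4.3.3 (lmFit, eBayes, trend and robust off), 2 libraries against 2, two-sided, adjusted by Benjamini-Hochberg over all rows. There were 2 residual and 2.63 prior degrees of freedom. The smallest p of an exact permutation test at this size is 0.333. The calculation was tested on simulated data. Groups follow the description labels. The members, lists and tests were chosen with earlier results of these data known. Full statistics are given for members past the threshold, members with no overlap and a log2 difference of 0.3 or more, and members whose knockout libraries disagree, and for up to 5 other vesicle genes in each direction; further values are described. Alternatives were other pseudocounts, filters, scaling, trend, the replicate letter as a block, library weights, rows listed at 0 and each library left out.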

Additional observations from a re-analysis of the deposited data

How the results depend on the processing

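With 2 libraries a group, the count of calls rested on which libraries entered. Over all genes limma called 3 higher and 3 lower. The higher count was 1 with a pseudocount of 0.1, 1 when low rows were kept, and 0 with rows listed at 0 left out, and the lower count was 0 in that last setting. Leaving out each library gave 1 to 2269 higher and 3 to 2036 lower. For the members these counts went from 0 to 6 higher and from 0 to 12 lower, all of them without knockout A. The cause was not tested. The members' median of 0.034 was -0.038 at a mean FPKM of 5 or more and -0.0017 when low rows were kept. It was -0.016 without WT A, -0.0049 without WT B and -0.020 without knockout A. In the remaining settings the median stayed above 0, at 0.080 without knockout B. With the replicate letter as a block 4 genes were called higher and 3 lower and 0 members, the lowest adjusted p of a member being 0.278. The deviations of same-lettered libraries had a correlation over genes of -0.0135, and the labels do not say what the letters mark, so they were not used to pair libraries. No other pseudocount, filter, scaling, trend or weighting called a member or turned the sign of its difference. Leaving out 1 library turned the sign of 15 members, whose log2 differences ranged from -0.92 to 0.052 (Sv2b), -0.65 to 0.26 (Syt6), -0.64 to 0.16 (Synpr), -0.63 to 0.016 (Syt1), -0.58 to 0.16 (Syt5), -0.53 to 0.11 (Syn3), -0.51 to 0.015 (Unc13b), -0.37 to 0.080 (Unc13a), -0.37 to 0.058 (Syt10), -0.28 to 0.0076 (Rims1), -0.16 to 0.084 (Syngr3), -0.14 to 0.061 (Vamp2), -0.040 to 0.11 (Pclo), -0.020 to 0.12 (Rims2) and -0.0049 to 0.079 (Rab3a). Total depth is unknown, so genes near 1 FPKM, such as Syt2, Syt12 and Syt10, have an unknown counting error.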
